A study of Mus musculus with 6 samples.

Results

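Cells of whole mouse lungs at embryonic day (E) 18.5 were chosen by mesothelial marker genes, and 377 of the 16515 cells that passed quality limits in the 2 whole-lung libraries met the rule. The mesothelium is the thin epithelium that covers the lung surface, and the rule asked for a sum of at least 3 SoupX-adjusted UMIs of Msln, Upk3b and Lrrn4, no Pecam1, Cdh5 or Ptprc, and less than 50 of Sftpc. A UMI is a molecular identifier that counts 1 captured RNA molecule, and SoupX is a correction that lowers each count by an estimate of free RNA in the droplet. Before that, barcodes needed at least 700 genes and between 0.5% and 10% mitochondrial UMIs. The data did not bear out the name mesothelial for most of the chosen cells, as described below, so they are called Msln-rich cells here.

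The series held 63659 barcodes in 6 droplet libraries, 1 for each group, so no difference between groups could be tested. Whole lungs came from E18.5 embryos of Cxcl12DsRed mice, in which the DsRed reporter sits in the Cxcl12 gene, with lungs of more than 1 embryo per genotype according to the methods. One library is labelled control, with the genotype Cxcl12DsRed/+ (1 reporter copy), and the other null, with the genotype Cxcl12DsRed/DsRed (2 copies). The protocol in the labels describes a sort for every sample, but the titles of these 2 name none, and they held immune and Epcam-positive cells that the sort would remove. The other 4 libraries, from Cxcl12DsRed/+ lungs, held cells sorted for the reporter: 3 embryonic ages (E13.5, then E15.5, then E18.5) and P8, the eighth day after birth.

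Cxcl12, the gene that the reporter allele disrupts, went against these labels. All kept cells of the library labelled control held 96 Cxcl12 UMIs, 1.27 UMIs per 1000000 UMIs of the same cells (CPM, exact Poisson 95% interval 1.03 to 1.55), and those of the library labelled null held 19230, 190.6 CPM (188 to 193). The names of the deposited matrices also give the opposite genotypes, so each library is called by its label and no direction below is read as an effect of Cxcl12 loss. Xist, the X-inactivation RNA made in female cells, stood at 0.119 CPM in the library labelled control and at 758 CPM in the other, and Ddx3y of the Y chromosome at 74.3 and 35.4 CPM, so the libraries also differed in sex-linked RNA. The libraries held 85648519 and 103857395 UMIs, SoupX removed 39.7% and 18.1% of them, and 140 barcode sequences occurred in both libraries but none among the Msln-rich cells. Intervals cover counting error only.

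Mesothelial cells arise from mesoderm yet form an epithelial sheet with keratins and tight junctions, and in the fetus they supply growth factors to the lung below. Msln encodes mesothelin, a surface protein that binds the mucin MUC16. Upk3b encodes a uroplakin, Lrrn4 a leucine-rich repeat membrane protein and Wt1 a transcription factor of mesothelium and kidney. Lung epithelium proper is marked by Epcam and Nkx2-1, its flat gas-exchange type 1 (AT1) cells by Ager, Hopx and Aqp5, its surfactant-making type 2 (AT2) cells by Sftpc, and its airway secretory cells by Scgb1a1, Scgb3a2 and Cyp2f2.

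In the library labelled control 205 of 7448 kept cells were Msln-rich, a share of 2.75% (exact Clopper-Pearson 95% interval 2.39% to 3.15%). In the library labelled null the count was 172 of 9067, or 1.90% (1.63% to 2.20%). Nearly all entered the rule through Msln alone. Msln without any Upk3b or Lrrn4 was found in 193 of 205 and in 167 of 172, and the library labelled null held no Msln-rich cell that lacked the required 3 UMIs of Msln. The marker sum ran from 3.01 to 124 in the library labelled control, with a median of 11.6. Just inside the limit, 19 and 11 cells had a sum of 3 to 4, with medians of 3.49 and 3.79 UMIs, and all of them carried Epcam. Just outside it, 35 and 19 kept cells had a sum of 2 to 3, of which 32 and 19 carried Epcam. Of the 264 and 246 kept cells that reached the marker sum, 34 and 48 were dropped for Sftpc and 29 and 34 for Ptprc.

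Epcam, a surface protein of lung epithelium, was above 0 in 186 of the 205 Msln-rich cells of the library labelled control and in 162 of the 172 of the other. With each cell thinned to 3000 UMIs, which left out 1 cell of the library labelled control, the shares with an Epcam UMI were 71.1% (64.3% to 77.2%) and 73.3%, against 0.894% and 0.492% of immune cells chosen for this by Ptprc with no limit on Epcam, whose median raw depth was 16233 and 16248 UMIs. Unthinned, the shares were 90.7% and 94.2% against 3.93% and 2.45%. Wt1 was above 0 in 11 and 5 Msln-rich cells, Lrrn4 in 10 and 5, and Upk3b in 12 and 5. The median raw UMI count was 11882 and 18144 in the Upk3b-positive cells and 12087 and 18037.5 in all Msln-rich cells. Upk3b, Lrrn4 and Wt1 were thus at 0 in more than 9 in 10 of the chosen cells. Only the small Upk3b-positive set carried the defining markers together.

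**Figure D1:**
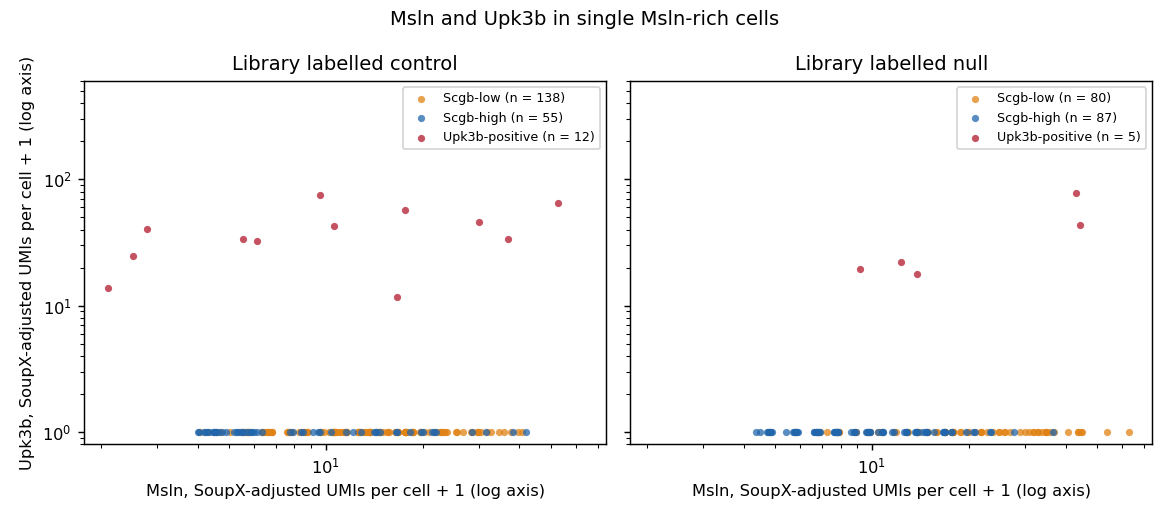
SoupX-adjusted UMIs of Msln (x axis) and Upk3b (y axis), each with 1 added and on a log axis, for every Msln-rich cell, in the library labelled control (left) and labelled null (right); points are single cells, coloured by group. The 12 and 5 Upk3b-positive cells lie between 10.6 and 77.5 Upk3b UMIs, and all other cells lie at 0 Upk3b UMIs.

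The promoters of 4 genes that mark the groups compared below are shown. Upk3b and Lrrn4 occurred in the same cells, while Ager and Aqp5 were highest in other cells. Each run is the 250 bases before the RefSeq transcription start in GRCm38.p6, read 5′ to 3′ on the strand of the gene. Capitals mark the 6-letter core of TEAD factors, GGAATG on either strand, and the NKX2-1 core CAAGTG would have been marked likewise. Upk3b lies at chr5:136038246-136038495 on the plus strand and Lrrn4 at chr2:132880863-132881112 on the minus strand. Ager lies at chr17:34597600-34597849 and Aqp5 at chr15:99590778-99591027, both on the plus strand. The GENCODE gene positions used elsewhere here start Aqp5 at 99590782, so most of its window lies inside that gene. They start Lrrn4 at 132880891, also inside its window.
Upk3b: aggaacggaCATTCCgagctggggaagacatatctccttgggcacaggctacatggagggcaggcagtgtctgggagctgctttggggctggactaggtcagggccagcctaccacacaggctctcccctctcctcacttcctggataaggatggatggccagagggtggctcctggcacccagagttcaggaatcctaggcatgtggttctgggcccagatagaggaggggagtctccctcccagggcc
Lrrn4: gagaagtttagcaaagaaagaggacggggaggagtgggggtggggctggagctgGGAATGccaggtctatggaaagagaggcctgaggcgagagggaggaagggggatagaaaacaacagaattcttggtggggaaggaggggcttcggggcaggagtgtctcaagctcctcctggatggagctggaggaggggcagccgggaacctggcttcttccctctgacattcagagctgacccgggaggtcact
Ager: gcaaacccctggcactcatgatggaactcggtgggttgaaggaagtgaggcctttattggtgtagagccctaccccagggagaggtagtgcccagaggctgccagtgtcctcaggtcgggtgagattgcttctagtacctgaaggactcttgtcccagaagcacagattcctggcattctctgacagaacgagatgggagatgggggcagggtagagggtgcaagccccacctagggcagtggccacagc
Aqp5: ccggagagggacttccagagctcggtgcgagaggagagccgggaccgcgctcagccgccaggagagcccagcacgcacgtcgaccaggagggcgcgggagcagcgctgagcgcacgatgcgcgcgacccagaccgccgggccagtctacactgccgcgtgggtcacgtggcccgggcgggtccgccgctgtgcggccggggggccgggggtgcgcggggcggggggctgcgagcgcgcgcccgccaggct
The TEAD core occurred once in the windows of Upk3b and Lrrn4 and was not among the letters of the Ager and Aqp5 windows. It occurred in 12.6% of all 32851 promoters, and the NKX2-1 core, found in none of these 4 windows, in 11.6%. Such a match describes letters only. Of the 47 genes named for the profiles below, 30 had an entry.

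The Msln-rich cells were separated into 3 groups after their values had been seen, so the genes that define them are descriptions. The Upk3b-positive cells were 12 (5.85%) and 5 (2.91%). The Upk3b-negative cells split by the summed SoupX-adjusted level of the airway genes Scgb1a1, Scgb3a2 and Cyp2f2 at 1000 CPM. Cells at or above it, called Scgb-high, were 55 (26.8%, 20.9% to 33.4%) in the library labelled control and 87 (50.6%, 42.9% to 58.3%) in the library labelled null. With a marker sum of at least 5 for the choice of cells the shares were 17.6% and 45.3%. Cells below it, called Scgb-low, were 138 (67.3%) and 80 (46.5%). Few cells lay near the limit: 4 and 8 fell between 300 and 3000 CPM, and 136 of 193 and 72 of 167 Upk3b-negative cells had an airway sum of 0. These counts too are after SoupX. In the Scgb-low cells of the library labelled control, Scgb3a2 was found in 23.9% in raw counts and in 0% after SoupX. Its summed raw level there was 764 CPM, and 57.5 CPM in the Scgb-low cells of the other library. The part of the correction in this gap was not tested.

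The Upk3b-positive cells carried mesothelial genes together. Their Upk3b ranged from 10.6 to 74.2 SoupX-adjusted UMIs per cell (median 36.0) in the library labelled control and from 16.8 to 77.5 (median 21.1) in the library labelled null. Every one of them also carried Upk1b, a further uroplakin, and Wt1 and Lrrn4 were each above 0 in 10 of 12 and 5 of 5. Epcam was above 0 in 1 of 12 and 1 of 5. The Epcam-positive cell of the library labelled control also held 19043 CPM of the airway genes and no Col1a1, and its 32067 raw UMIs were the most of the 12. That of the library labelled null held no Col1a1 either, with an airway sum of 0, and its 28566 raw UMIs were the most of the 5. Among the Upk3b-negative cells Wt1 was above 0 in 1 of 193 and 0 of 167, the latter with an exact upper limit of 2.18% for cells with a Wt1 UMI after SoupX. Wt1 is a low gene, with 14 raw UMIs in all Msln-rich cells of that library, so these counts do not limit the share of cells that express it.

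In summed raw counts, Upk3b (chr5:136038496-136046487) stood at 2829 CPM (2580 to 3096) in the Upk3b-positive cells of the library labelled control and at 1824 CPM (1569 to 2109) in those of the library labelled null, and Msln (chr17:25748613-25754378) at 1758 and 1553 CPM. Wt1 (chr2:105126529-105173616) reached 126 CPM (77.7 to 192) from 21 UMIs and 140.3 CPM (76.7 to 235) from 14 UMIs. Aldh1a2, which makes retinoic acid, stood at 688 and 641 CPM, and its log2 ratio over all other kept cells of the same library, with 1 CPM added to both, was at least 7.53 in each. In all, 1241 genes reached 100 CPM in these cells of both libraries, so genes low there could not enter. Of them 115 (9.27%) were at least 4-fold higher than in the other kept cells in both. The 25 with the largest smaller ratio included Pnoc, a neuropeptide precursor (log2 ratio 8.29 and 8.94), Gpm6a, a membrane glycoprotein (8.47 and 7.39), Muc16, the partner of mesothelin (7.45 and 7.28), Cldn15, a tight junction claudin (7.61 and 6.37), the basement membrane collagens Col4a3 and Col4a4 (6.80 and 6.49 for Col4a4), Cpe, a carboxypeptidase (6.85 and 5.83), Car9, a carbonic anhydrase (5.77 and 5.93), and Igfbp6, a binding protein of insulin-like growth factors (6.68 and 5.70).

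Gene lists placed the Upk3b-positive cells apart from the rest of the Msln-rich cells. Of 11 other mesothelial markers, 11 were at least 4-fold higher in the Upk3b-positive cells than in the other kept cells in both libraries, where 1.81% of all 20202 genes compared without a filter on level passed that fold. In the Scgb-high cells it was 1 of 11 and in the Scgb-low cells 1 of 11, Krt19 in both. The list medians were 6.05 and 6.37 in the Upk3b-positive cells, 0 and -0.06 in the Scgb-high cells and -0.41 and -0.61 in the Scgb-low cells, beside medians between -0.13 and 0.02 for the 1110 genes that reached 100 CPM in the Msln-rich cells of both libraries. Rspo1, a Wnt agonist, stood at 634 and 551 CPM in the Upk3b-positive cells, against at most 24.8 CPM in the Scgb-high and 3.14 CPM in the Scgb-low cells.

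Some matrix and complement genes were higher in the summed counts of the Upk3b-positive cells. Col3a1, a fibrillar collagen, stood at 7267 and 4149 CPM, log2 ratios of 3.58 and 2.32 over the other kept cells, and Col1a1 at 2626 and 3077 CPM (2.36 and 1.68). Of the 22 genes for fibrillar collagens and interstitial matrix, 3 passed the fold upward in both libraries and 1 downward, where 1.81% of all genes passed upward and 7.23% downward, and the list medians were 0.67 and 0.29. Of 7 fibroblast markers 2 passed upward, Col3a1 and Dcn, and 1 downward, Pdgfra, with list medians of 1.49 and 0.96. Their summed levels were 13720 and 12137 CPM against 5475 and 6556 CPM in the other kept cells. The fibroblast-rule cells described below, chosen by 3 of these markers, held more, 17120 and 16467 CPM. Of 14 complement genes and regulators 6 passed upward and 0 downward, among them C3, the central complement component (1262 and 1203 CPM, log2 4.34 and 4.74), C2 (6.49 and 5.78) and Clu, a complement inhibitor (4.71 and 4.03). Of 21 basement membrane genes 5 passed upward and 0 downward, against 6 and 2 in the Scgb-low cells and 2 and 7 in the Scgb-high cells. In the Upk3b-positive cells Igfbp5, from the list of growth factors, stood at 4324 and 3307 CPM (5.85 and 4.86). Col1a1 was above 0 in 11 of 12 and 4 of 5 of these cells after SoupX. Its adjusted UMIs per cell had medians of 25.3 and 28.5 and highest values of 67.1 and 170. In the library labelled null the cell with 170 was followed by 1 with 46.3, so the summed Col1a1 level there rests largely on 1 cell.

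Krt19, a keratin of simple epithelia and mesothelium, behaved differently before and after the correction. In raw counts thinned to 3000 UMIs it was found in 11 of 12 Upk3b-positive cells of the library labelled control and 4 of 5 of the other, against 1.09% and 0.987% of the immune cells. After SoupX it was above 0 in 1 of 12 and 4 of 5. The raw levels of the 2 libraries, 915 and 942 CPM, were close. Whether the correction removed true Krt19 from the library labelled control was not tested.

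**Figure D2:**
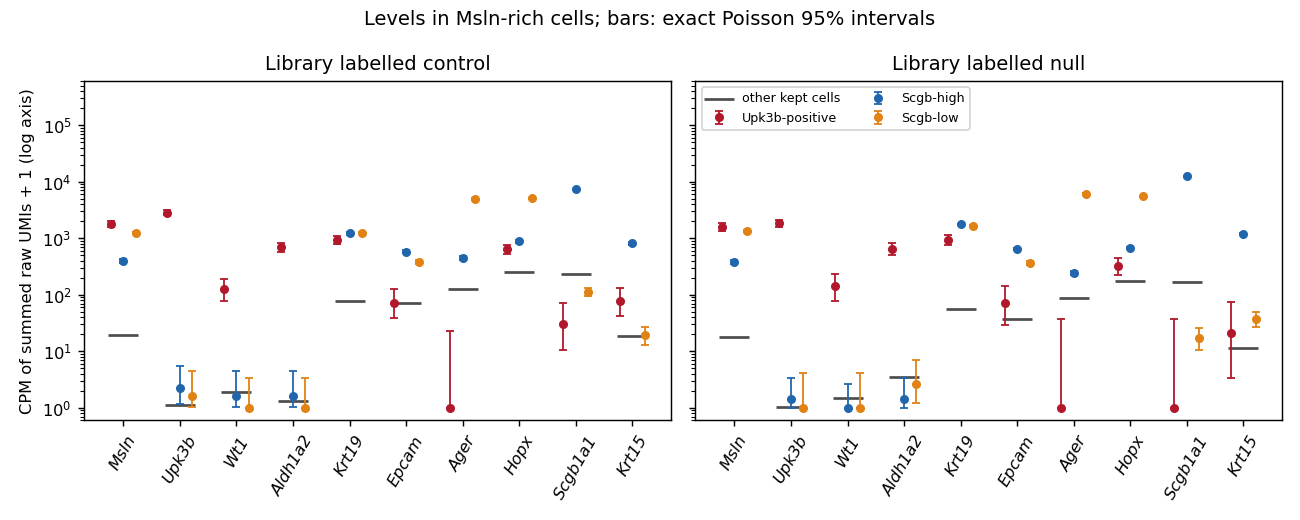
Summed raw UMIs in CPM with 1 added (log axis) for 10 genes in the Upk3b-positive, Scgb-high and Scgb-low cells, with exact Poisson 95% intervals, and in the other kept cells (bars), in each library. Upk3b, Wt1 and Aldh1a2 stand high only in the Upk3b-positive cells among the groups drawn, Ager and Hopx are highest in the Scgb-low cells and Scgb1a1 and Krt15 in the Scgb-high cells, while Msln and Krt19 are high in all 3 groups.

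Msln chose the cells, so its level in each group is a description. Scgb-high cells held 390.2 CPM (360 to 422) in the library labelled control and 379 CPM (354 to 405) in the library labelled null, and Scgb-low cells 1217 CPM (1164 to 1273) and 1346 CPM (1280 to 1413). The limit of 3 UMIs is met at a lower CPM in a deeper cell, and the Scgb-high cells were deeper. Per cell, the median was 5.36 and 7.94 adjusted UMIs in Scgb-high cells, out of a median of 22257 and 23375 raw UMIs, and 11.8 and 16.8 in Scgb-low cells, out of 10634.5 and 13514.5.

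The Scgb-low cells held AT1 genes at high levels. Ager, which encodes the receptor for advanced glycation end products, stood at 4934 CPM in the library labelled control and 6037 CPM in the other, against 446 and 246 CPM in the Scgb-high cells and no UMI in either set of Upk3b-positive cells. Hopx, a homeodomain protein, stood at 5041 and 5494 CPM, and Aqp5, a water channel, at 425 and 964 CPM. Of the 6 AT1 markers 6 were at least 4-fold higher in Scgb-low cells than in the other kept cells in both libraries (1.78% of all genes), against 0 of 6 in Scgb-high cells. By the smaller ratio of the libraries, Dlk2 and Cryab, a small heat shock protein, differed most from the Scgb-high cells, ahead of Ager. Others with a large difference were Akap5, Igfbp6, Ctgf, a matricellular growth factor, Cdkn2b, an inhibitor of the cell cycle, and Id3. Id3 is a target of bone morphogenetic proteins, with log2 ratios of Scgb-high over Scgb-low of -3.23 and -3.45.

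By the smaller ratio of the libraries over the Scgb-low cells, the Scgb-high cells were led by Chad, Hp, Scgb1a1, Scgb3a2 and Krt15. Chad, a matrix protein of cartilage, stood at 180 and 156 CPM against 1.25 and 0.846 CPM in the Scgb-low cells. Hp, haptoglobin, stood at 2815 and 4387 CPM against 37.7 and 60.1 CPM, Trf, transferrin, at 2132 and 2550 CPM against 42.0 and 88.0 CPM, and Krt15, a basal keratin, at 809 and 1202 CPM against 18.2 and 36.4 CPM. Upk3a, the uroplakin paired with Upk1b in urothelium, stood at 105 and 145 CPM against 10.0 and 0 CPM. Of 7 immune markers 7 were at least 4-fold lower than in the other kept cells of both libraries in the Upk3b-positive and in the Scgb-low cells, and 4 in the Scgb-high cells, where 7.23%, 4.93% and 5.97% of all genes passed downward in the 3 groups in that order. The rule had itself excluded Ptprc, so this is a description.

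**Figure D3:**
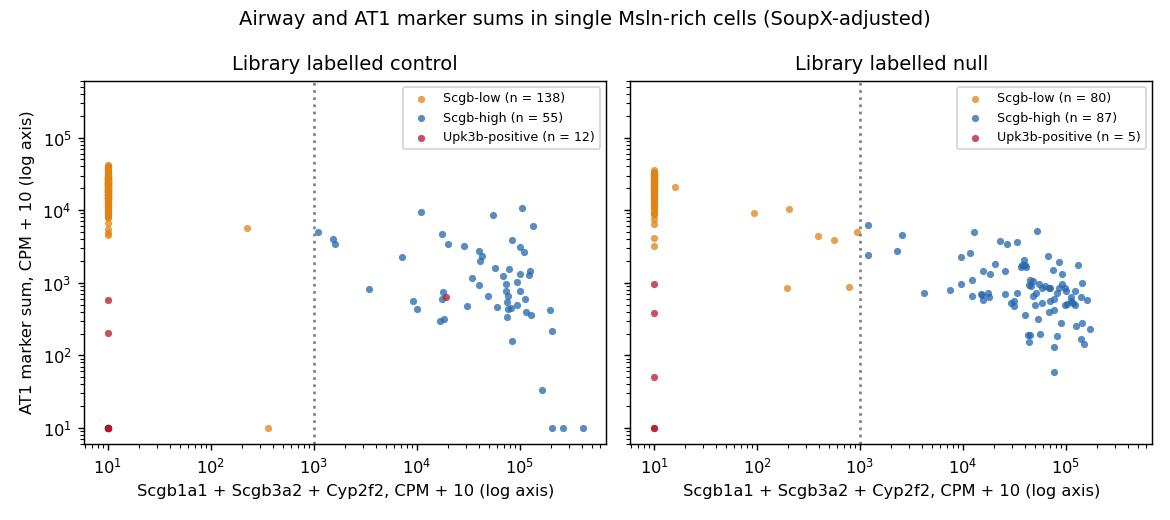
Summed SoupX-adjusted airway genes (Scgb1a1, Scgb3a2, Cyp2f2; x axis) and AT1 genes (Ager, Hopx, Aqp5, Rtkn2, Akap5; y axis) in CPM with 10 added, on log axes, for each Msln-rich cell; the dotted line marks the limit of 1000 CPM. Most Upk3b-negative cells lie either at the left edge with a high AT1 sum or to the right of the line with a lower one, and 25 and 28 cells reach 1000 CPM of both.

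Airway and AT1 sums ran in opposite directions across the Upk3b-negative cells, with Spearman coefficients of -0.777 over 193 cells and -0.865 over 167 cells. Cells of 1 library share its depth and free RNA, the sums are shares of the same total, and the airway sum defined the split, so these are descriptions. The AT1 sum had a median of 810 and 718 CPM in Scgb-high and of 19677 and 19713 CPM in Scgb-low cells. Both sums reached 1000 CPM in 25 of 193 and 28 of 167 cells. Scrublet, a doublet caller, marked 3.64% and 5.75% of the Scgb-high cells, 15.2% and 11.3% of the Scgb-low cells and 1 of 12 and 0 of 5 Upk3b-positive cells, against 5.95% and 5.28% of all kept cells. In the epithelial-rule cells described below the marked shares were 10.7% (7.52% to 14.6%) and 6.67% (3.49% to 11.4%). These intervals overlapped those of the Scgb-low cells (9.67% to 22.3% and 5.28% to 20.3%). The part of doublets in the split was not tested.

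Taking all Msln-rich cells as 1 class, 1110 genes reached 100 CPM in these cells of both libraries. Of them 89 were at least 4-fold higher than in the other kept cells in both (8.02%), and 8 were lower (0.721%). Genes low in the Msln-rich cells could not enter, so the balance of higher and lower follows in part from this filter. The 25 genes with the largest smaller ratio mixed the groups described above. Msln, which the rule used, led with log2 ratios of 5.47 and 5.36, from 854 CPM (823 to 886) and 729 CPM (702 to 758). Aqp5 followed with 4.76 and 4.88, Krt15 with 4.42 and 6.12 and Ager with 4.36 and 4.59. Among those that followed were Akap5, Clic3, a chloride channel protein, the keratin Krt7, Col4a4, Gprc5a, a receptor induced by retinoic acid, Scgb3a2, Krt19, Scgb1a1, Dapk2, Fxyd3, Fgfbp1, Lypd2, Cyp2f2, Sfn, 2200002D01Rik, Lmo7, Hopx, Rab25, Wfdc2 and Mal. In the 12 Upk3b-positive cells of the library labelled control the same genes divided, with Col4a4 at 1017 CPM and Fxyd3 at 1435 CPM, and Gprc5a at 5.98 CPM and Sfn at 5.98 CPM.

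Compared with the other Epcam- or Cdh1-carrying cells that had no Msln, Upk3b or Lrrn4 (epithelial-rule cells, 318 and 180), the Msln-rich cells had higher AT1 genes, with list medians of 2.70 and 2.82 in log2 ratio. The airway list was divided, with medians of -0.32 and -0.15: its secretory genes Scgb1a1, Scgb3a2 and Cyp2f2 were higher and its ciliated-cell genes Foxj1, Ccdc153 and Tmem212 lower in both libraries. At least 4-fold higher in both libraries were 23 of 1110 genes (2.07%), and 7 were lower (0.631%). These 1110 had reached 100 CPM in the Msln-rich cells, so genes low there were left out. The balance of higher and lower follows in part from that. Aqp5 was higher by a log2 ratio of 4.76 and 5.98, Ager by 2.57 and 2.69 and Scgb3a2 by 2.06 and 3.28, while Nkx2-1, the lung epithelial regulator, stood at 0.08 and 0.04. Epcam, at -0.10 and 0.20, had itself chosen the epithelial-rule cells. The AT2 list had medians of -4.75 and -5.64. The rule limited Sftpc in the Msln-rich cells and not in the epithelial-rule cells, so this follows in part from the selection. Of the kept cells with Epcam above 0, 25.9% and 31.1% were Msln-rich, and the epithelial-rule cells had to lack Msln. The AT1 ratios thus depend on the selection too and are a description. Fibroblast-rule cells held at least 20 UMIs of Col1a1, Col1a2 and Col3a1 without Epcam (1497 and 3100 cells). Over them 126 of the same 1110 genes were at least 4-fold higher in both libraries (11.4%). Of the 24 keratins, cadherins and junction genes, 13 were at least 4-fold higher than in the other kept cells in both libraries with no filter on level, where 1.88% of all genes were, among them Krt7 (3.99 and 4.84), Krt18 (3.23 and 3.96) and Cldn18, a claudin of alveolar epithelium (3.19 and 3.53).

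**Figure D4:**
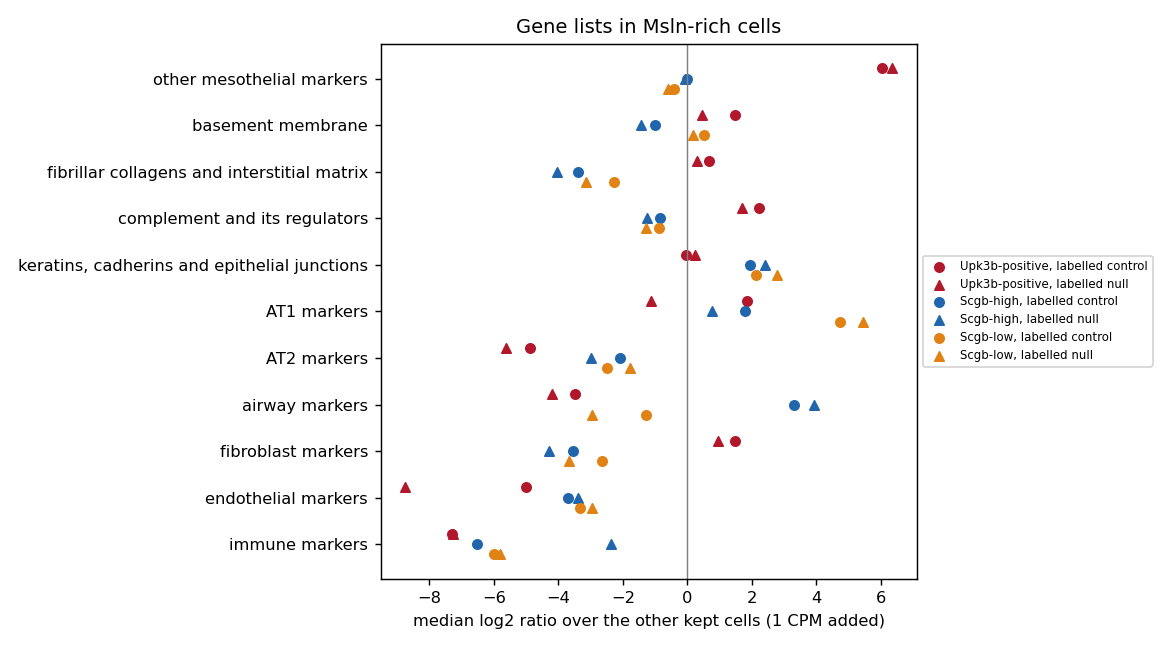
Median log2 ratio over the other kept cells of the same library, with 1 CPM added, for 11 gene lists (rows) in the 3 groups of Msln-rich cells; circles are the library labelled control and triangles the library labelled null. The other mesothelial markers lie at 6.05 and 6.37 in the Upk3b-positive cells and near 0 or below in the other groups, the AT1 markers are highest in the Scgb-low cells and the airway markers in the Scgb-high cells.

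Other pathways of the mesothelium were followed through lists. Of 22 transcription factors of mesoderm and lung 4 passed the fold upward in the Upk3b-positive cells of both libraries, which were Wt1, Bnc1, Bnc2 and Tbx18, the last from only 2 and 5 UMIs. In Scgb-high and Scgb-low cells 12 and 8 of the 22 passed downward, where 5.97% and 4.93% of all genes did. Upward 2 of the 22 passed in each, against 1.74% and 1.78% of all genes. In the Upk3b-positive cells 1 passed downward, against 7.23%. Of 16 retinoic acid genes only Aldh1a2 passed upward in the Upk3b-positive cells of both libraries. Among 21 Wnt and R-spondin genes 3 passed upward there (Rspo1 and the Wnt antagonists Sfrp1 and Sfrp2). Downward 5 passed (Dkk2, Wif1, Lef1, Lgr4 and Lgr6), and of all genes 1.81% passed upward and 7.23% downward. The 21 genes summed to only 386 and 414 CPM in the other kept cells. A gene with no UMI in the Upk3b-positive cells can still reach 22.1 and 37.0 CPM there. Low genes can thus pass downward for lack of depth, and the downward counts in these few cells are a description. Of 22 BMP and TGF-beta genes 0 passed upward and 3, 5 and 3 downward in the Upk3b-positive, Scgb-high and Scgb-low cells, against 1.81%, 1.74% and 1.78% of all genes upward and 7.23%, 5.97% and 4.93% downward. Of 18 cell cycle genes 0 passed in either direction, and lists of this size are too small to read from 0 upward at those shares. The 18 immediate-early genes, known to rise with tissue dissociation, had medians over the other kept cells of -0.95 and -0.98 over all Msln-rich cells.

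A sum of at least 10 UMIs over 14 proliferation genes was found in 14 of 205 (6.83%) and 14 of 172 (8.14%) Msln-rich cells, against 5.83% and 7.80% of the other kept cells. Scgb-high cells reached it in 18.2% (9.08% to 30.9%) and 11.5% (5.65% to 20.1%) and Scgb-low cells in 2.17% (0.451% to 6.22%) and 3.75% (0.780% to 10.6%). The intervals of the 2 groups were apart in the library labelled control and overlapped in the other. In epithelial-rule cells the shares were 10.1% (6.99% to 13.9%) and 11.1% (6.92% to 16.6%), and these intervals overlapped those of the Scgb-high cells. The sum is not adjusted for depth, and the Scgb-high cells were deeper than the Scgb-low cells in both libraries.

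The Msln-rich cells of the 2 libraries were then compared, the question being which genes differ between the genotypes named by the labels. Of 1319 genes at 100 CPM or more in either library, 10 were at least 2-fold higher in the library labelled null with intervals apart (0.758%) and 14 lower (1.06%), and the median log2 ratio was 0.01. Sex-linked genes were kept in these counts, and Xist, at 0 and 1021 CPM, was among the 10. The counts were 58 higher and 44 lower on SoupX-adjusted values, which turns the balance. They were 29 and 34 with every cell left out that held Epcam, more than 5 UMIs of Sftpc or more than 50 of Hba-a1, which left 0.255% and 0.0993% of the kept cells as Msln-rich. In the epithelial-rule cells the same criteria called 16 of 1497 higher (1.07%) and 4 lower (0.267%). With 1 library a group these folds have no replicate check, sex-linked RNA and the SoupX removal differed as given above, and the mix of the 3 groups differed too. The 7 immune markers summed to 35.4 CPM in the library labelled control and 236 CPM in the library labelled null (29.2 and 348 CPM in Scgb-high cells). After SoupX they summed to 0 and 10.8 CPM. The raw sums were 3668 and 2465 CPM in the other kept cells and 500 and 1180 CPM in the epithelial-rule cells. Lyz2, which is on the AT2 list as well, was called higher. The part of the immune markers in these differences was not tested.

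The 12 genes named on the side of the library labelled null, a rule that asked for intervals apart but not for 2-fold, were led by Retnla, Tspan1, S100a14 and Fmo1, and of the 3 airway-list genes at the minimum only Scgb1a1 was called. Scgb1a1, the secretoglobin of club cells, stood at 3552 CPM (3488 to 3617) in the library labelled control and at 7931 CPM (7839 to 8024), a log2 ratio of 1.16. Within the Scgb-high cells alone the ratio was 0.73, within Scgb-low cells -2.71, and in the other kept cells -0.47. Retnla, a secreted resistin-like protein, stood at 74.4 CPM (65.4 to 84.2) and 198 CPM (184 to 213), log2 1.40, and its ratio was 0.91 within Scgb-high and 2.15 within Scgb-low cells but -0.54 in the other kept cells and 0.08 in epithelial-rule cells, where it stood at 1606 and 1693 CPM. S100a6, a calcium-binding protein, stood at 508 and 1073 CPM, log2 1.08, with 0.79 and 1.79 within the groups and 1.32 in epithelial-rule cells. Tspan1 (log2 1.32) and S100a14 (1.20) held their direction within both groups, and Tmem37 (1.11), Hp (1.05), Krt15 (0.99), Lrrc26 (0.99) and Wfdc2 (0.82) did too. Fmo1 (1.16) and 8430408G22Rik (0.93) had ratios above 0 within the Scgb-high and below 0 within the Scgb-low cells. Intervals of the 2 libraries overlapped within the Scgb-low cells for Fmo1, 8430408G22Rik, Hp and Lrrc26, and within the Scgb-high cells for S100a14. Krt15, Lrrc26, 8430408G22Rik and Wfdc2 did not reach 2-fold and were not called. On SoupX-adjusted values Scgb1a1 (0.74), S100a14 (0.83) and Hp (0.64) fell short of 2-fold too.

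The 12 genes named on the side of the library labelled control were led by Rarres2, Tinag, Nrep and Mgp. Rarres2, which encodes the chemoattractant chemerin, stood at 119 CPM (108 to 132) in the library labelled control and 29.2 CPM (23.9 to 35.4) in the library labelled null, log2 -1.99, and in the Upk3b-positive cells it stood at 1681 and 411 CPM. Those cells held 281 of its 398 UMIs in the library labelled control and 41 of 105 in the other. Col3a1 stood at 432 and 173 CPM, log2 -1.32. Its ratio was -0.56 within Scgb-high and 0.24 within Scgb-low cells, with overlapping intervals of the 2 libraries in both groups. It stood at 7267 and 4149 CPM in the Upk3b-positive cells, whose share was larger in the library labelled control. Tinag, a basement membrane protein (log2 -1.50), Lama3 and Lama5, laminin chains (-1.25 and -0.91), Mgp, an inhibitor of calcification (-1.36), and H19, an imprinted growth-linked RNA (-1.03), had ratios below 0 within both Scgb-high and Scgb-low cells. Mgp fell from 536 and 208 CPM in raw counts to 63.8 and 39.3 CPM after SoupX, where its log2 ratio of -0.69 no longer reached 2-fold, and immune cells held 408 and 435 CPM of it. The Cwc22 ratio was -0.94 after SoupX, also under 2-fold. Tinag had ratios of -1.30 in the other kept cells and -1.02 in epithelial-rule cells, and Cwc22 of -0.73 and -0.81. Without the cells holding Epcam, Sftpc or Hba-a1 above those limits the Tinag ratio was 0.42, with a counting interval of -0.81 to 1.64. For Lama3 the ratios were -1.44 and -0.75 within the groups, -1.16 in epithelial-rule cells and -0.67 in the other kept cells. Nrep (-1.43), Cwc22 (-1.11), Pxdn (-1.02), Ltbp3 (-0.95) and Fbn2 (-0.94) completed this side, with ratios below 0 within both groups. Lama5, Ltbp3 and Fbn2 did not reach 2-fold and were not called. Of 8 basement membrane genes at 100 CPM or more in either library 0 were called higher and 1 lower, with a median of -0.86, against -0.06 for the same genes in the other kept cells. Within Scgb-high cells this median was -0.72 and within Scgb-low cells -0.22. Of 8 fibrillar and interstitial matrix genes 0 were called higher and 2 lower, with a median of -0.48, against 0.56 in the other kept cells. Over all 1319 genes 1.06% were called lower.

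**Figure D5:**
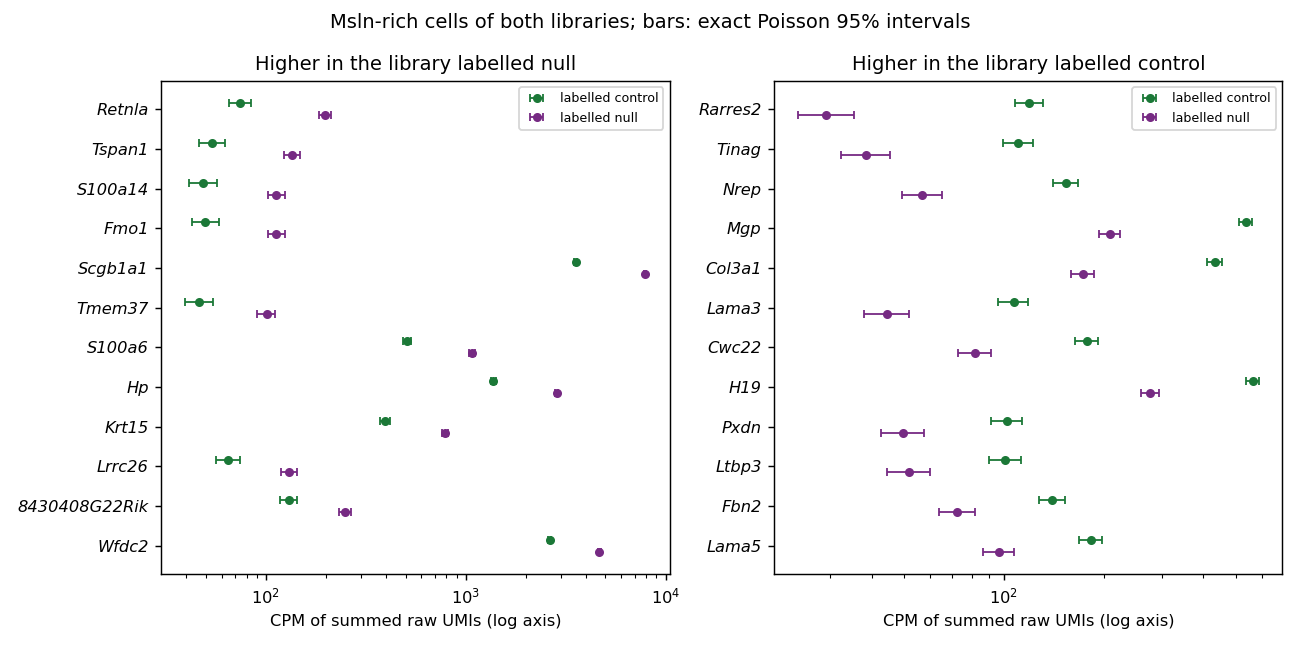
Summed raw UMIs in CPM (log axis) of the genes named for the comparison of libraries, for Msln-rich cells of the library labelled control (green) and labelled null (purple), with exact Poisson 95% intervals; left, the 12 named on the side of the library labelled null, right, the 12 on the side of the library labelled control, 4 and 3 of them under 2-fold. No pair of intervals overlaps, and each library is 1 sample.

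Within the groups the counts of called genes shifted. Scgb-low cells had 20 genes higher (1.47%) and 12 lower (0.879%) of 1365, and Scgb-high cells 6 higher (0.466%) and 27 lower (2.1%) of 1288. The part of the unequal shares of the groups in the pooled ratios was not tested beyond the ratios within groups.

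Cxcl12 itself was low in the Msln-rich cells. The library labelled control had 0 UMIs, which allows up to 1.11 CPM by the upper Poisson bound. The library labelled null had 81, or 22.5 CPM (17.9 to 28.0), against 197 CPM in the other kept cells. These UMIs sat in 14 of 172 cells, and 70 of the 81 in 5 cells, with 33, 13, 10, 7 and 7 each. All 5 also held raw UMIs of the endothelial genes Pecam1 and Cdh5, which SoupX had taken to 0 for the rule. The 141 cells without raw Pecam1 or Cdh5 held 6 Cxcl12 UMIs, 2.18 CPM (0.801 to 4.75), and after SoupX the level in all Msln-rich cells was 0.835 CPM. Thinned to 3000 UMIs, 1.74% of Msln-rich and 1.15% of immune cells had a Cxcl12 UMI, the former from 3 of 172 cells (0.361% to 5.01%). The summed level in immune cells of that library was 6.01 CPM. Over all Msln-rich cells the receptor Cxcr4 stood at 4.20 CPM (2.30 to 7.04) and 2.78 CPM (1.33 to 5.12) and the scavenger receptor Ackr3 at 5.40 CPM (3.20 to 8.53) and 5.57 CPM (3.40 to 8.60), against 17.7 and 25.7 CPM and 26.1 and 31.4 CPM in the other kept cells. For both receptors the intervals of the 2 libraries overlapped. In the Upk3b-positive cells Ackr3 stood at 35.9 CPM (13.2 to 78.1) and 30.1 CPM (6.20 to 87.9), from 6 and 3 UMIs, and these intervals held the levels of the other kept cells.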

How the data were processed

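Libraries were 10x 3′ droplet libraries. The authors ran Cell Ranger (3.1.0 per the file headers of both whole lungs) against mm10 and deposited raw UMI counts per gene and cell, unscaled. The deposited SoupX tables of the whole lungs hold expected counts, which are UMI counts lowered for free RNA and no longer whole. Strand and multi-mapping settings are not given in the sources used here, so overlapping genes and near-identical copies are uncertain.

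Here the rule and the limits on cells were applied to the SoupX tables, and levels are raw UMIs summed over cells in CPM, with exact Poisson 95% intervals. Log2 ratios had 1 CPM added and thus understate low genes. Shares have exact Clopper-Pearson intervals. With 1 library per group no test was run. Called genes reached 100 CPM and a 4-fold ratio over other cells in both libraries, or a 2-fold ratio between libraries with intervals apart. Immune cells had at least 2 UMIs of Ptprc and none of Epcam, Pecam1, Cdh5 or the 3 rule markers, and epithelial-rule cells at least 3 of Epcam and Cdh1. Doublets were marked by Scrublet (scanpy 1.11.5) on raw counts and kept, except in 1 alternative. Named genes were the 25 leading over other kept cells and the 12 leading each way between libraries, the latter found in at least 10% of cells of the higher library, in the same direction after SoupX, with no cell above 20% of the UMIs, and without mitochondrial, ribosomal, haemoglobin and sex-linked genes, and list members at 100 CPM or more. The members and lists were chosen with earlier results of these data known, and the 3 groups within the cells, with the genes named for them, after their values were seen. Alternatives were other cell limits, scalings and pseudocounts. The scripts were tested on simulated data. Gene positions are of GENCODE vM21 (GRCm38), and 31011 of 31053 gene IDs matched. Promoters are from RefSeq. scipy 1.17.1 was used. Some items among the named genes and lists are not reported here.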

Additional observations from a re-analysis of the deposited data

Results flagged for a closer look

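The 4 sorted libraries were outside the main measurement, and cells passing the same limits on raw UMIs were found in 3 of them above the limit that a count of 0 allows. At E13.5 there were 27 of 12726 kept cells (0.212%, exact 95% interval 0.140% to 0.309%), at E15.5 18 of 11649 (0.155%), at E18.5 7 of 9542 (0.0734%), and at P8 1 of 8451. At E13.5 Upk3b was present in 26 of the 27 cells, Wt1 in 19 and Epcam in 0, but Msln in only 1. At E15.5 Upk3b was present in all 18, Wt1 in 14, Msln in 4 and Epcam in 1. At E18.5 Msln was present in all 7, Epcam in 6 and Upk3b in 1. Msln, Upk3b and Lrrn4 chose these cells, so a cell without Upk3b had to enter through the other 2, and their values by age are a description. Summed Msln was 4.46 CPM (0.113 to 24.8) at E13.5, 65.3 CPM (33.8 to 114) at E15.5 and 1571 CPM at E18.5, and Upk3b 825, 1089 and 55.3 CPM. Aldh1a2 stood at 383 CPM at E13.5 and 310 CPM at E15.5. Per the labels, the sort removed CD45- and EpCAM-positive cells and kept reporter-positive ones, and each age was 1 library, so ages and sorts cannot be told apart.

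Cxcl12 in these cells was 129 CPM (86.6 to 186) at E13.5, against 264 CPM in the other kept cells of that library, and 10.9 CPM (1.32 to 39.3) against 637 CPM at E15.5. At E18.5 it was 177 CPM (101 to 287) against 1160 CPM. These levels came from 29, 2 and 16 raw UMIs, with no correction for free RNA. The sort was for the reporter in the Cxcl12 gene, so they are a description.

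For 4 genes the log2 ratio of the library labelled null over the library labelled control had opposite signs in Scgb-high and Scgb-low cells, and the difference was not tested. Scgb-high minus Scgb-low was 3.45 for Scgb1a1, 2.25 for Fmo1, 1.16 for 8430408G22Rik and -0.80 for Col3a1. Scgb1a1 chose the groups, so its difference is part of the split. In Scgb-low cells the intervals of the 2 libraries overlapped for Fmo1 (9.15 to 21.7 and 1.86 to 11.1 CPM). They did too for 8430408G22Rik (36.5 to 58.3 and 24.9 to 47.1 CPM) and Col3a1 (82.6 to 114 and 96.6 to 136 CPM). For Col3a1 they also overlapped in Scgb-high cells, so these opposite signs are within counting error.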

How the results depend on the processing

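No paired analysis was possible because each group had 1 library and no result came from a test. Leaving out a replicate was not possible for the same reason. Among the named profile genes 270 of 275 values kept their direction over 11 alternatives, and among the genes named between libraries 258 of 264.

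Leaving out cells with Epcam, more than 5 Sftpc or more than 50 Hba-a1 removed over 9 in 10 of the cells. The Msln-rich share fell to 0.255% and 0.0993%, the Scgb-high share to 0% and 0%, and Cxcl12 in the library labelled null to 9.32 CPM. Genes called between libraries were 29 higher and 34 lower. The list medians, here the mean of both libraries, were 5.83 for other mesothelial markers (main 2.14), 3.82 for AT1 (3.94), -4.64 for airway (2.93), 0.97 for fibroblast (-2.38) and 0.30 for fibrillar collagens and interstitial matrix. Ratios over other cells turned to -4.20 for Krt15, -5.45 for Scgb3a2, -7.89 for Scgb1a1, -5.08 for Cyp2f2 and -3.25 for Sfn. Ratios between libraries became -0.53 for Tmem37 (counting interval -1.27 to 0.21) and -2.54 for Lrrc26 (-6.54 to 1.46). They became 0.42 for Tinag (-0.81 to 1.64) and 0.29 for Ltbp3 (-0.59 to 1.16). All of these library intervals held 0, so their signs are not settled. In the Upk3b-positive cells alone, an alternative chosen after seeing the data, the medians were 6.21 for other mesothelial markers, 0.37 for AT1, -3.85 for airway and 1.23 for fibroblast.

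A marker sum of at least 5 gave a share of 2.22% and an Scgb-high share of 17.6% in the library labelled control, 28 genes lower in the library labelled null, and medians of 4.10 (AT1), 2.49 (airway) and -2.23 (fibroblast). Cxcl12 in the library labelled null was 2.15 CPM with cells chosen on raw UMIs, 15.8 CPM without Scrublet calls, 0.835 CPM after SoupX and 33.9 CPM scaled without mitochondrial, haemoglobin and ribosomal genes. Genes called higher and lower were 58 and 44 after SoupX, 16 and 27 with that scaling and 151 and 243 without a filter, and 42 were lower at 50 CPM. Without a filter 382 genes were 4-fold higher than in other cells. The AT1 median was 4.23 after SoupX, 5.22 with per-cell means, 3.80 with 5 CPM added and 4.09 with the other scaling. The fibroblast median was -2.48 without the lower mitochondrial limit, -2.85 without Scrublet calls, -3.41 after SoupX, -2.69 with per-cell means and -2.24 with the other scaling. With 5 CPM added the other mesothelial markers fell to 1.14 and airway to 2.72. The causes were not tested. The 12 and 5 Upk3b-positive cells, 167204 and 99776 UMIs in all, limit what can be said of them, and a gene with no UMI there can reach 22.1 and 37.0 CPM.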

Other observations

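The FXYD-family regulator Fxyd3 stood at 1435 CPM and 1263 CPM in the Upk3b-positive cells, at 282 and 218 CPM in the Scgb-low cells and at 75.6 and 56.7 CPM in the Scgb-high cells, and Col4a4 followed the same order, with 1017 and 631 CPM, 296 and 265 CPM, and 29.2 and 8.65 CPM. Igfbp6 stood at 2835 and 1814 CPM in the Upk3b-positive cells, 590.5 and 675 CPM in the Scgb-low cells and 55.9 and 28.5 CPM in the Scgb-high cells. Tnnt2, a troponin of heart muscle, stood at 532 and 531 CPM in the Upk3b-positive cells.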
